A study of Mus musculus with 30 samples.

Results

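Tumors of a single type can differ from each other, and the 10 B16-IFNA9 tumors of this bulk RNA-seq series differed in genes induced by interferon-γ (IFN-γ). These 10 tumors, of 30 in the series, were chosen by their label and ranked by a score, the mean log2 CPM (counts scaled to library size) of 5 genes, Irf1, Gbp4, Tgtp1, Nos2 and Cxcl9. The order of the tumors was thus chosen by the measured levels of these 5 genes, which are given as a description with no test. Every other gene with a mean of at least 10 counts, 15884 genes in all, was then related to the rank of its tumors with Spearman's rho. All tumors were whole tumors taken 8 days after subcutaneous inoculation of young adult female C57BL/6 mice, and the labels call the 10 of each type biological replicates 1 to 10. The B16-IFNA9 cells were made from the mouse melanoma line B16-F10, which was transduced with retrovirus encoding IFNα9 and enhanced GFP under the murine stem cell virus LTR, with glycoprotein B of herpes simplex virus and with luciferase. B16-IFNA4 cells carried IFNα4 in place of IFNα9, and B16-GFP cells carried the vector without an IFNα. All 3 lines thus shared GFP, glycoprotein B and luciferase. The lines were sorted pools of transduced cells, expressed their transgenes from the tumor cells alone, and grew in mice with no engineered deletion.

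IFN-γ is made mainly by NK cells and T cells and signals through the receptor chains Ifngr1 and Ifngr2 and the kinases Jak1 and Jak2. The signal acts through a palindromic element of promoters known as GAS and induces Irf1, which in turn binds the interferon-stimulated response element. Type I interferons (IFN-I), IFNα among them, act through another receptor and mainly through the interferon-stimulated response element, and both responses share many genes. Among the 5 ranking genes, Irf1 is a transcription factor, Gbp4 is a guanylate-binding protein and Tgtp1 is an immunity-related GTPase, Nos2 makes nitric oxide, and Cxcl9 attracts T and NK cells that bear Cxcr3. Genes of IFN-γ itself, Jak2, Socs1 and Ciita were not analysed here.

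To show what the promoters of such genes look like, the 250 bases before the RefSeq start sites of 5 genes are given from build GRCm38.p6. They are the promoters of the ranking genes Irf1 and Cxcl9 and of Gbp5, Irgm2 and Irf8, which were higher in tumors with a higher score. Capitals mark the letters TTCNNNGAA, the core of a GAS element, and TTTCNNTTTC on either strand, the core of an interferon-stimulated response element.
Irf1, chr11:53769764-53770013 (plus strand): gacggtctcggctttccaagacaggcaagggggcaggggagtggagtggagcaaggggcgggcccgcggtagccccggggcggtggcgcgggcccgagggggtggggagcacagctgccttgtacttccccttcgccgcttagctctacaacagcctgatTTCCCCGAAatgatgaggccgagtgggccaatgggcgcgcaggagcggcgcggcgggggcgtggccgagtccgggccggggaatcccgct
Cxcl9, chr5:92328080-92328329 (minus strand): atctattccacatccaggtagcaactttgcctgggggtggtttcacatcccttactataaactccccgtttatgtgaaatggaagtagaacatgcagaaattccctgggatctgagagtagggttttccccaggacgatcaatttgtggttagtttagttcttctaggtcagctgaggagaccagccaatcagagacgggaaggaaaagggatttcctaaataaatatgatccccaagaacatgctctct
Gbp5, chr3:142496684-142496933 (plus strand): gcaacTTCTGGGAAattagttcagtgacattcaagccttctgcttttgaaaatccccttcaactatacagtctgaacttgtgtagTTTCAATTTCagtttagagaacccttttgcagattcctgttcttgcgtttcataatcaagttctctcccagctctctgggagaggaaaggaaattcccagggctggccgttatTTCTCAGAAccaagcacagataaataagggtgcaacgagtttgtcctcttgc
Irgm2, chr11:58214727-58214976 (plus strand): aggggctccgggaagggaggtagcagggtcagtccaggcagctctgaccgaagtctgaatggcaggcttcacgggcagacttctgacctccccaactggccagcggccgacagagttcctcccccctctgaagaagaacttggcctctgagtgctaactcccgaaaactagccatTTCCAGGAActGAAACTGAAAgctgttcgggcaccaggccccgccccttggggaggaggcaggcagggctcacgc
Irf8, chr8:120736108-120736357 (plus strand): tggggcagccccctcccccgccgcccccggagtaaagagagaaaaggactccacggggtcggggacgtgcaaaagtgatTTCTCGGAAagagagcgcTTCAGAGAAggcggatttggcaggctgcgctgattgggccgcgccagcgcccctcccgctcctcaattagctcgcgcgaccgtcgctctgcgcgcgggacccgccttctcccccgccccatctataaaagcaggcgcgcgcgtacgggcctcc
Irf1 and Irf8 each have another RefSeq start site, whose window (chr11:53770223-53770472 and chr8:120738389-120738638) held no match to either motif and is not printed. The window of Cxcl9 held no match, which says only that these letters are not in these 250 bases. Irf8 and Gbp5 each held 2 matches to TTCNNNGAA, and Gbp5 and Irgm2 each held 1 match to TTTCNNTTTC.

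The score ran from 6.67 to 9.04 among B16-IFNA9 tumors, with a median of 7.96 and an SD of 0.79 (n = 10). In ascending order the score was 6.67 in replicate 5, 7.11 in replicate 1, 7.33 in replicate 10, 7.61 in replicate 6, 7.71 in replicate 4, 8.22 in replicate 9, 8.34 in replicate 3, 8.39 in replicate 7, 9.03 in replicate 2 and 9.04 in replicate 8. The highest 2 tumors lay close together and above the other 8. Among those 8 the widest gap lay between replicate 4 (7.71) and replicate 9 (8.22). The B16-IFNA4 tumors spanned 6.67 to 7.69 (median 7.38, SD 0.33, n = 10) and the B16-GFP tumors 2.73 to 5.49 (median 4.35, SD 0.79, n = 10). Thus 6 of the 10 B16-IFNA9 tumors lay above every B16-IFNA4 tumor, and no B16-GFP tumor reached the lowest B16-IFNA9 tumor. These values describe how the members were ranked and were not tested.

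**Figure D1:**
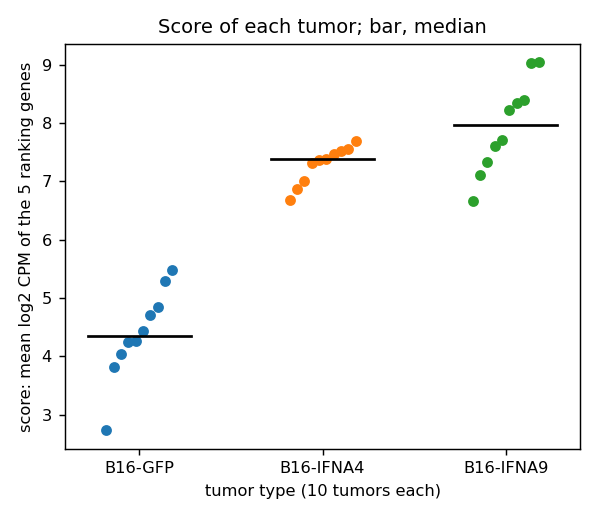
Score of each tumor, the mean log2 CPM of the 5 ranking genes, with 10 tumors (points) of each type and a bar at the median. B16-IFNA9 tumors span 6.67 to 9.04, B16-IFNA4 tumors 6.67 to 7.69 and B16-GFP tumors 2.73 to 5.49.

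All 5 ranking genes varied several-fold among tumors of the B16-IFNA9 type. Nos2 (ENSMUSG00000020826.8, chr11:78920787-78960254 in GRCm38) had the widest range, from 5.21 CPM through a median of 24.1 to 60.2 CPM, an 11.6-fold span. Gbp4 (ENSMUSG00000079363.7, chr5:105115767-105139586) ran from 155 through 425 to 956 CPM (6.15-fold). Cxcl9 (ENSMUSG00000029417.9, chr5:92321347-92328079) ran from 129 through 319.6 to 631 CPM (4.91-fold). Replicate 5 was lowest for each of these 3 genes, and replicates 2 and 8 were the highest 2 tumors for each. Irf1 (ENSMUSG00000018899.16, chr11:53770014-53778374) spanned 128 to 487 CPM around a median of 229 (3.80-fold), and Tgtp1 (ENSMUSG00000078922.9, chr11:48985327-48994172) spanned 804 to 2702 CPM around 1461 (3.36-fold). The 5 genes also ranked the tumors alike, since the 10 pairwise rho values among them lay between 0.89 and 0.98. By its SD on the log2 scale, the percentile of each ranking gene among all genes was 92.3 (Irf1) to 98.8 (Nos2). Reads could not be assigned to Tgtp1 with certainty, because 81.2% of the stretches of 50 bases in its transcripts also occur in other genes, chiefly Tgtp2.

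**Figure D2:**
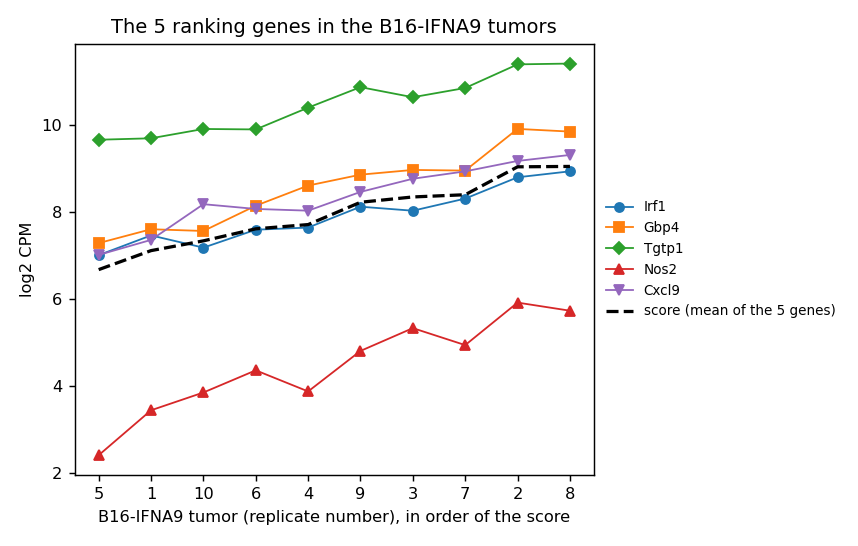
Log2 CPM of the 5 ranking genes (lines with symbols) and their mean, the score (dashed), in the 10 B16-IFNA9 tumors in order of the score. Each gene is lowest in replicate 5 and highest in replicate 2 or 8.

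Neither depth nor the level of the transgene had a relation to the score that passed the test. Total counts were 15312860 to 18528910 in B16-IFNA9 tumors. Ifna9 was counted 55 to 148 times per B16-IFNA9 tumor and Ifna4 was at 0 in all of them, in keeping with their labels, and Ifna9 was at 0 in all 20 tumors of the other types. Among B16-IFNA9 tumors Ifna9 ran from 3.23 to 9.10 CPM, and its relation to the score was negative but did not pass the test (Pearson's r = -0.47, permutation p = 0.176; rho = -0.50, exact permutation p = 0.144; adjusted p = 0.415 and 0.432 over 6 relations; r = -0.55 without replicates 5 and 8, the 2 tumors farthest from the median score). The total count (r = -0.38, permutation p = 0.277; rho = -0.20, exact permutation p = 0.584), the TMM factor (r = -0.40, p = 0.243; rho = -0.36, p = 0.313) and the number of genes with a count (r = 0.11, p = 0.763; rho = 0.13, p = 0.733) did not pass either, with adjusted p of at least 0.415. Without replicates 5 and 8 these r values were -0.10, -0.02 and -0.27. Principal component 1 of these 10 tumors, with 29.26% of their variance, gave r = 0.22 (permutation p = 0.556) and rho = 0.26 (exact permutation p = 0.470), with r = -0.08 without replicates 5 and 8. Component 2, with 19.46%, gave r = -0.71 (permutation p = 0.0186, adjusted p = 0.111) and rho = -0.62 (exact permutation p = 0.0603, adjusted p = 0.362), with r = -0.51 without replicates 5 and 8.

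Beyond the ranking genes, 62 genes were higher in tumors with a higher score and 6 were lower, in Spearman's exact permutation test with Benjamini-Hochberg adjustment over all genes. These are 0.39% and 0.0378% of the genes tested. Each of the 68 genes had an absolute rho of at least 0.94, and the largest rho that missed the threshold was 0.93. The size of each relation was taken from a quasi-likelihood fit in edgeR as a slope, the log2 change in a gene per log2 unit of the score. That fit by itself called 150 genes higher (0.944%) and 7 lower (0.0441%), and it called 61 of the 62 and 1 of the 6. The slopes of the 62 genes ran from 0.17 to 1.68, with a median of 0.65. Their Pearson's r was 0.82 to 0.99, and 0.79 to 0.98 without replicates 5 and 8.

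The count of calls by rank depended on which tumors were included. Leaving out replicate 2, 5 or 8, which are the lowest tumor and the highest 2, left 0 genes called higher by Spearman's test, with 634, 570 and 745 higher genes at an unadjusted exact p under 0.05 against 861 with all tumors. The counts of higher genes were 17 without replicate 1, 23 without replicate 3, 20 without replicate 6, 23 without replicate 9, 24 without replicate 10, 45 without replicate 7 and 56 without replicate 4. With 9 tumors the smallest exact p is 5.51e-06, so that a gene with a perfect rho would have an adjusted p of 0.0876 unless others tied with it, and the lower counts reflect this limit as well. In edgeR, where that limit does not hold, 48 genes rose with the score without replicate 8, 61 without replicate 5, 63 without replicate 2, 90 without replicate 1 or 3, and 96 without replicate 7, against 150. In all, 38 of the 62 genes were also called by edgeR with all tumors and in each of the 10 fits without 1 tumor.

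The guanylate-binding proteins and the immunity-related GTPases moved together with the score. Both families are GTPases that act at the membranes around intracellular pathogens, and both are strongly induced by IFN-γ. All 10 Gbp genes tested beside Gbp4 were higher in tumors with a higher score (rho 0.94 to 0.99, slopes 0.42 to 1.68), as were 5 listed immunity-related GTPases (Igtp, Irgm1, Irgm2, Ifi47 and Tgtp2, rho 0.95 to 0.99, slopes 0.50 to 0.80). Tgtp2 is no separate evidence, since most of its reads cannot be told from those of the ranking gene Tgtp1, and without it 4 of 4 were called. Gm12250, known as Irgb10, belongs to the same GTPase family and was called as well. All 15 were among the 38 genes called in every fit without 1 tumor.

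Gbp2b had the steepest slope of the 62 genes, 1.68 ± 0.11 (SE, edgeR adjusted p = 2.79e-05). In order of the score its level was 7.41, 14.1, 11.6, 26.8, 29.5, 49.1, 57.6, 52.6, 146 and 90.3 CPM. The tumors at the upper end of the score thus held many times the level of those at the lower end, and replicate 2 exceeded replicate 8. Gbp2, which was the most abundant Gbp gene by CPM, went from 351 CPM in replicate 5, 407 in replicate 1 and 385 in replicate 10 to 1417 in replicate 2 and 1564 in replicate 8, with a slope of 0.94 ± 0.07 (rho = 0.99, Spearman's exact adjusted p = 0.00876). Gbp7 and Gbp9 had lower slopes of 0.66 ± 0.06 and 0.68 ± 0.05. Irgm2, a GTPase of the immunity-related family, was 307 CPM in replicate 5 and 881 CPM in replicate 8, around a median of 533 CPM, with a slope of 0.65 ± 0.05 (rho = 0.99). Some members cannot be told apart by reads of 50 bases. Shared stretches make up 86.6% of Tgtp2, 84.1% of Gbp10 and 70.7% of Gbp6, so that these counts may include each other's reads and, for Tgtp2, those of the ranking gene Tgtp1. Shared stretches make up only 2.03% of Gbp2, 1.84% of Gbp2b and 1.44% of Gbp5.

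Of the 62 genes, 28 lay at 5 sites with at least 3 called genes each, and the others lay elsewhere. How many genes would lie so close at random was not tested. Within 1 Mb of each other, 5 were on chromosome 3 (142493978 to 142638008, all 5 genes tested there), 6 on chromosome 5 (105014150 to 105346472, all 6 tested), and 7 of 12 and 3 of 3 at a pair of sites on chromosome 11 (48861968 to 49135387 and 58187739 to 58222782). These sites hold the Gbp genes and the immunity-related GTPases. Another site on chromosome 6 (128609227 to 130193112), the NK gene complex, held 7 called genes of 41 tested. Positions are those of GENCODE M21 on GRCm38. Neighbours of 1 family are not independent of each other.

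The list of IFN-γ-induced genes beyond the ranking genes had 30 genes tested. Of these, 19 were higher in tumors with a higher score and none was lower, against 0.39% and 0.0378% of all genes. Their median rho was 0.95, against -0.01 over all genes. The list was chosen with earlier results of these data known and holds relatives of the ranking genes Gbp4 and Tgtp1, so that these values are a description. The list contains the 10 Gbp genes and 5 GTPases above, so that 15 of the 19 are already described, and of its other 15 genes 4 were called, the GTPase Gm12250 and, outside both families, Cd274, Batf2 and Acod1, with a median rho of 0.83. Cd274, which encodes PD-L1, the ligand of the checkpoint receptor PD-1, rose from 84.6 CPM in replicate 5 to 317 and 318 CPM in replicates 2 and 8 (slope 0.78 ± 0.07, rho = 0.98, exact adjusted p = 0.0151). Acod1, which makes itaconate in activated macrophages, ran from 6.98 through 17.9 to 43.1 CPM (slope 0.95 ± 0.11), and the transcription factor Batf2 from 16.04 through 28.2 to 82.5 CPM (slope 0.88 ± 0.11). All 3 genes were highest in tumors at the upper end of the score. Not every gene of the list passed. The chemokines Cxcl10 (rho = 0.88) and Cxcl11 (0.87) and the receptor Slamf8 (0.90) missed by rank and were called by edgeR (adjusted p = 0.0359, 0.0311 and 0.00110). The complement inhibitor Serping1 (0.78, at a median of 905 CPM), the tryptophan-degrading enzyme Ido1 (0.58) and the prostaglandin synthase Ptgs2 (0.26) passed neither test.

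**Figure D3:**
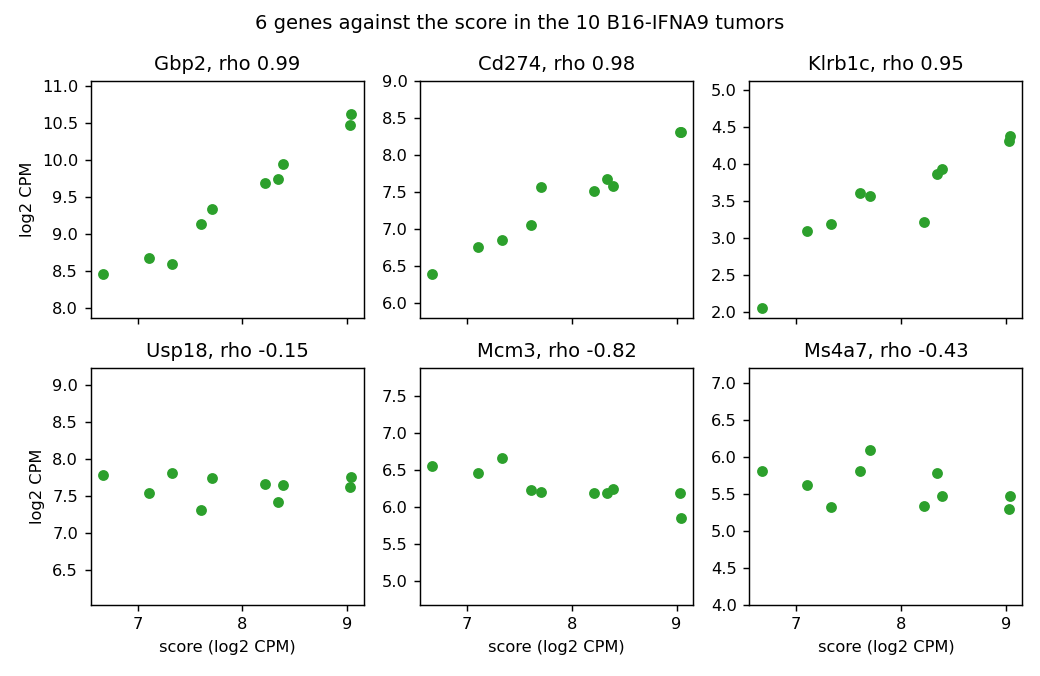
Log2 CPM of 6 genes against the score in the 10 B16-IFNA9 tumors (points), each panel spanning the same width on the log2 axis. Gbp2, Cd274 and Klrb1c are higher toward a higher score, and Usp18, Mcm3 and Ms4a7 did not pass the test (rho of -0.15, -0.82 and -0.43).

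Among 19 tested genes of IFN-γ production and signaling, 3 were higher in tumors with a higher score, against 0.39% of all genes. Irf8 and Il12rb2 were among the 3. Irf8, a transcription factor of myeloid cells that IFN-γ induces, went from 39.1 CPM in replicate 5 to 96.2 in replicate 2 and 117 in replicate 8 (slope 0.64 ± 0.07, rho = 0.99). Il12rb2, the signaling chain of the IL-12 receptor on NK and T cells, went from 4.89 to 11.2 CPM around a median of 8.60 (slope 0.54 ± 0.09, rho = 0.99).

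The other 16 genes of that list missed the threshold by rank. Of the whole list edgeR called 7 higher, against 0.944% of all genes. In edgeR 4 more passed, Il18rap (slope 0.70 ± 0.11), a chain of the IL-18 receptor, Il12rb1 (0.81 ± 0.17), the other chain of the IL-12 receptor, Eomes (0.62 ± 0.11), a transcription factor of NK and CD8+ T cells, and Irf2 (0.29 ± 0.06). Stat4 (rho = 0.87), Il27 (0.83), Jak1 (0.81), Il15 (0.78), Tbx21 (0.75), Il18r1 (0.68) and Il18 (0.66) passed neither test. Neither receptor chain passed. Ifngr1 ran from 80.8 to 164 CPM (rho = 0.50) and Ifngr2 from 59.5 to 70.6 CPM (rho = -0.03). The inhibitors Ptpn2 and Socs3 had rho values of 0.38 and 0.24, and Il12b, a subunit of IL-12, had 0.31.

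Genes that report IFN-I more than IFN-γ were called in part. Of 31 IFN-I-stimulated genes tested, 2 were higher in tumors with a higher score, 27 had a positive rho, 9 by rank and 12 in edgeR had an unadjusted p under 0.05 (861 and 1016 of all 15884 genes), and the list's median rho was 0.45. The 2 genes were Zbp1, a sensor of nucleic acids (slope 0.48 ± 0.06, 282 to 693 CPM, rho = 0.99), and Parp14 (slope 0.40 ± 0.07, 233 to 495 CPM, rho = 0.94). edgeR also called Ifit2, Ifi44 and Oas3, which makes 5 of the 31 against 0.944% of all genes, and the 2 by rank stand against 0.39%. Ifit3, at a median of 845 CPM, and Oasl2, at 721 CPM, were the most abundant genes of the list and gave rho values of 0.56 and 0.68, neither of which passed. Mx1, an antiviral GTPase, ran from 129 to 202 CPM (rho = 0.58), Irf7, a regulator of IFN-I, from 292 to 442 CPM (rho = 0.35), and Usp18, an inhibitor of IFN-I signaling, from 159 to 225 CPM (rho = -0.15). Mx1, Irf7 and Usp18 were named after their values were seen. Mx2 had the lowest rho of the list (-0.33), one of only 4 negative values. Whether the lists differ in their relation to the score was not tested.

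**Figure D4:**
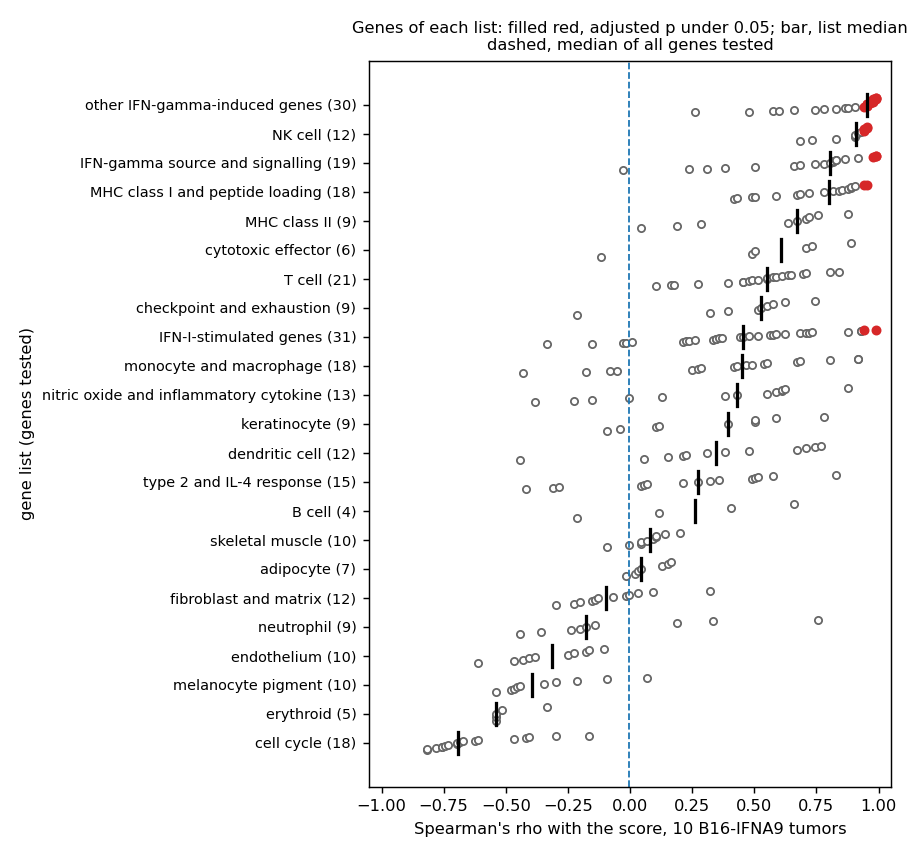
Spearman's rho with the score for the genes of 23 lists in the 10 B16-IFNA9 tumors, with the number of genes tested in parentheses. Red points passed an adjusted p of 0.05, black bars are list medians and the dashed line is the median of all genes, -0.01. Red points are found in 5 lists, 19 of them among other IFN-γ-induced genes, which include 10 Gbp genes and 5 immunity-related GTPases.

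Antigen presentation by MHC class I is another target of IFN-γ. Of its 18 genes tested, 2 were higher in tumors with a higher score, against 0.39% of all genes. All 18 rho values were positive, with a median of 0.80 against -0.01 over all genes. Psme1, a subunit of the proteasome activator PA28, ran from 157 to 305 CPM (slope 0.33 ± 0.06, rho = 0.95), and Nlrc5, the transactivator of MHC class I genes, from 152 to 356 CPM (slope 0.46 ± 0.06, rho = 0.94). The immunoproteasome subunit Psmb9 (rho = 0.85) and Tapbpl passed in edgeR only. B2m, the light chain of MHC class I, gave rho = 0.88 and the heavy chains H2-K1 and H2-D1 gave 0.50 and 0.42, and none of the 3 passed. None of 9 MHC class II genes passed by rank or in edgeR (median rho 0.67). In each test 5 were higher at an unadjusted p under 0.05, against 861 and 1016 of all 15884 genes. Among them H2-DMb1 was highest (0.88) and H2-Ob lowest (0.04), with H2-Aa at 0.76 and the cathepsin Ctss at 0.71.

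Some NK cell genes were higher in tumors with a higher score. Of 12 NK cell genes tested, 4 were called by rank and 10 by edgeR, against 0.39% and 0.944% of all genes. None of the 12 was called by edgeR with Ptprc, a leukocyte gene described below, as a covariate. The list's median rho was 0.91, and its summed level ran from 95.2 CPM in replicate 5 to 324 CPM in replicate 8. Klrb1c, which encodes the NK1.1 antigen, was 4.03 CPM in replicate 5, between 8.45 and 15.2 CPM in the next 7 tumors, and 19.7 and 20.7 CPM in replicates 2 and 8 (slope 0.76 ± 0.12, rho = 0.95). Klra8, the activating receptor Ly49H, ran from 4.19 through 13.0 to 28.1 CPM (slope 0.89 ± 0.11). Klre1 ran from 5.91 through 12.9 to 21.2 CPM (slope 0.66 ± 0.08) and Klrc1, an NKG2 chain, from 8.92 through 13.5 to 19.2 CPM (slope 0.49 ± 0.08). Klrk1, the receptor NKG2D, and Klrd1, the CD94 chain, missed by rank (rho = 0.93 and 0.90) and passed in edgeR. Ncr1, the NKp46 receptor, and Cd244a passed neither (0.83 and 0.68). The receptor genes share sequence, 38.6% of the stretches of Klrc1 and 33.1% of those of Klra8.

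Of 21 T cell genes tested, none was called by rank, with 5 higher at an unadjusted p under 0.05 (861 of all 15884 genes). The list had 1 gene called by edgeR (0.944% of all genes) and a median rho of 0.55. The chain Cd247, which T and NK cells share, was highest (0.84, called by edgeR), and Thy1 was lowest (0.10), with the transcription factor Tcf7 at 0.39. Its summed level ran from 250.5 CPM in replicate 10 to 576 CPM in replicate 8, and replicate 5, the lowest tumor by score, had 357 CPM. None of 6 cytotoxic effector genes tested passed in either test. In each, 3 were higher at an unadjusted p under 0.05, against 861 of all 15884 genes by rank and 1016 in edgeR. Fasl (0.89) was highest, Gzmk (-0.12) lowest, and the abundant Nkg7 and Ccl5 gave 0.73 and 0.50. Of 9 checkpoint genes none passed, with Cd160 at 0.75, Entpd1 at 0.32, Tnfrsf9 at 0.58 and Pdcd1, the receptor PD-1, at -0.21. In whole tumors, more cells of a type and more RNA per cell cannot be told apart.

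No monocyte or macrophage gene of 18 tested passed in either test (median rho 0.45). In each test 5 were higher at an unadjusted p under 0.05, against 861 of all 15884 genes by rank and 1016 in edgeR. Ly6c2, a marker of inflammatory monocytes, was highest at 0.92 and ran from 272 through 488 to 609 CPM, and Ms4a7, a macrophage gene, was lowest at -0.43. None passed either among 13 genes of nitric oxide and inflammatory cytokines (median rho 0.43), in which the chemokine Ccl2 had 0.88, Ccl7 0.61 and Il6 -0.38. Nor did any of 12 dendritic cell genes (0.35), from Clec9a at 0.77 to Fscn1 at -0.44. Among 15 genes of type 2 immunity and the IL-4 response none passed either (median rho 0.27). Il13ra1, a receptor chain for IL-4 and IL-13, had 0.83, Stat6, the transcription factor of that pathway, 0.52, and Pf4 -0.42. Neutrophil (-0.18, 9 genes) and B cell (0.26, 4 genes) lists had no called gene.

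Ptprc, which encodes CD45 on all leukocytes, ran from 161 CPM in replicate 5 to 474 CPM in replicate 2, and its own rho of 0.81 did not pass the test. With Ptprc as a covariate in edgeR, 24 genes (0.151%) rose with the score, 22 of them among the 150, and 0 fell (492 fell at an unadjusted p under 0.05), against 150 and 7 without it. The 24 included 9 of the 10 Gbp genes, 4 of the 5 immunity-related GTPases, Cd274, Batf2, Slamf8 and Irf8, and 21 of the 62 genes in all. None of the 12 NK cell genes and none of the 31 IFN-I-stimulated genes was among them. At an unadjusted p under 0.05, 7 of the 12 and 7 of the 31 rose, against 598 of all 15884 genes. With the covariate the slope of Klrb1c was 0.44 (adjusted p = 0.712) against 0.76 without it, that of Klre1 0.48 (0.373) against 0.66, that of Gbp2 1.02 (0.0174) against 0.94 and that of Cd274 0.62 (0.0437) against 0.78. Genes that lost their call differed in this. Il12rb2 (0.53 against 0.54, edgeR adjusted p = 0.543) and Psme1 (0.38 against 0.33, adjusted p = 0.541) had slopes near those without the covariate, while Klrb1c and Klre1 had lower ones.

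Genes lower in tumors with a higher score were few. The 6 genes were Tdp1 (rho = -0.98, 16.5 to 26.7 CPM), a DNA repair enzyme, Ahcy (-0.95, 48.7 to 78.3 CPM), an enzyme of methionine metabolism, Nup133 (-0.95), of the nuclear pore, Elavl1 (-0.94), an RNA-binding protein, Nop56 (-0.94), a nucleolar protein, and 0610040B10Rik (-0.95), an antisense transcript at a median of 1.52 CPM. Only Ahcy was also called by edgeR, with a slope of -0.24 ± 0.05, and 68.7% of its stretches are shared with other genes. All 18 cell cycle genes had a negative rho (median -0.69), but none passed in either test, with 11 by rank and 13 in edgeR lower at an unadjusted p under 0.05, against 523 and 770 of all 15884 genes. Mcm3, of the replicative helicase, and Cdc20, an activator of the anaphase-promoting complex, tied for the lowest rho (-0.82). Mcm3 went from 94.0 CPM in replicate 5 to 57.5 CPM in replicate 8, and Mki67 (-0.16) and Top2a (-0.30) were weaker. The summed level of the list was highest in replicate 10 (2387 CPM) and lowest in replicate 8 (1213 CPM).

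Of 10 melanocyte pigment genes, 9 had a negative rho (median -0.39) and none passed. Slc45a2 had -0.54, Tyrp1 -0.45, Gpnmb -0.21 and Mc1r 0.07. Their summed level was 14039 CPM in replicate 10, against 5595 to 9416 CPM in the other 9 tumors, so that every tumor held melanoma RNA. Tissue around the tumor was also present. Skeletal muscle genes summed to 15738 CPM in replicate 5 and to 2008 to 6349 CPM elsewhere, and adipocyte genes to 2400.0 CPM in replicate 5 and to 555 to 1343 CPM elsewhere. Keratinocyte genes summed to 2343 CPM in replicate 10 and to 6083 to 9289 CPM elsewhere. None of the genes in these lists passed, with median rho values of 0.08 for muscle (from Myh1 at -0.09 to Ckm at 0.20), 0.04 for adipocytes (Pparg -0.02, Plin1 0.16), 0.39 for keratinocytes (Lor -0.09, Flg2 0.78), -0.10 for fibroblasts (Col6a1 -0.30, Fn1 0.32), -0.32 for endothelium (Vwf -0.61, Eng -0.10) and -0.54 for erythroid genes (Hba-a1 -0.54, Alas2 -0.33). The part of these tissues in the results was not tested.

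Promoters of the genes higher with the score were searched for the motifs shown above. RefSeq windows matched 44 of the 62 genes and gave 50 windows of 250 bases. TTTCNNTTTC on either strand was found in 16 of the 50 (32%), against 2.98% of all 32851 windows and 2.78% of the windows of genes tested. TTCNNNGAA was found in 11 of the 50 (22%), against 7.02% and 6.00%. Both were found in 7 (14%), against 0.332% and 0.278%, and overlapping matches were counted for both. These shares are descriptions without a test, since promoters of 1 gene family share ancestry.

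The tumors of the other types had no part in the ranking. Each was scored by the same 5 genes within its own type. In B16-IFNA4 tumors 60 of the 61 genes that could be tested had a positive rho (98.4%, against 49.0% of all genes), with a median of 0.68, but none was called, although 35 had an unadjusted exact p under 0.05. Over all genes 36 (0.226%) were called higher and 1 (0.00627%) lower. Their spread of scores was less than that of B16-IFNA9 tumors, with an SD of 0.33 against 0.79. In B16-GFP tumors 58 of 59 had a positive rho (98.3%, against 46.9%), with a median of 0.61. The genes Igtp, Tgtp2 and Gbp10 were called, of 5 genes called higher (0.0321%) and 2 lower (0.0129%) over all genes, although Tgtp2 largely shares its reads with Tgtp1, a gene of the score, and 29 of the 59 had an unadjusted exact p under 0.05. Of the 6 lower genes, 4 in B16-IFNA4 and 5 in B16-GFP tumors had a negative rho, against 51% and 53.1% of all genes, and none of them was called or at an unadjusted exact p under 0.05.

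**Figure D5:**
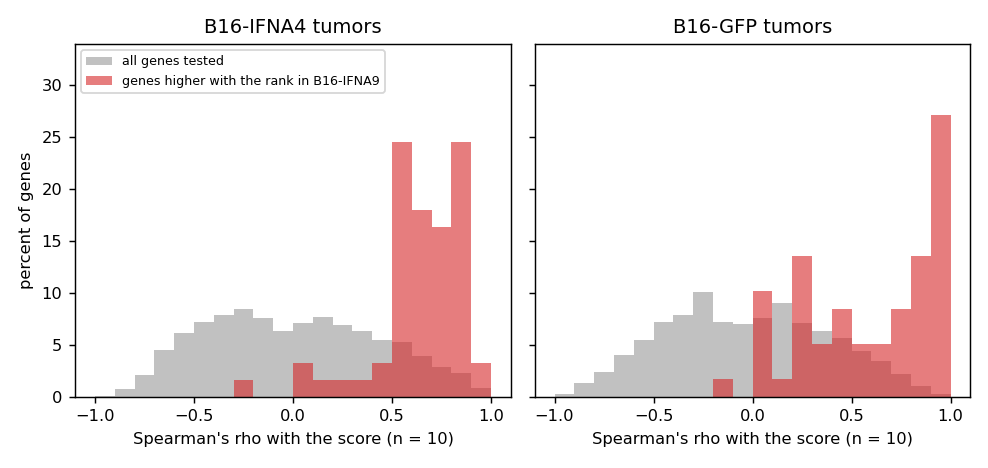
Spearman's rho with the score in the 10 B16-IFNA4 tumors (left) and the 10 B16-GFP tumors (right), as percent of genes per bin of rho, for all genes tested (grey) and for the 62 genes higher with the score in B16-IFNA9 tumors (red). The red genes have a median of 0.68 on the left and 0.61 on the right.

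By gene group, the other IFN-γ-induced genes had median rho values of 0.60 in B16-IFNA4 and 0.84 in B16-GFP tumors, the NK cell genes 0.67 and 0.53, and the IFN-I-stimulated genes 0.76 and 0.38, beside 0.95, 0.91 and 0.45 in B16-IFNA9 tumors. Monocyte and macrophage genes had 0.85 in B16-IFNA4 tumors, where 4 of 18 were called, and 0.07 in B16-GFP tumors. Ms4a7 gave a rho of 0.99 in B16-IFNA4 and -0.43 in B16-IFNA9 tumors. Slopes were compared between types in 1 edgeR fit of all 30 tumors. Against B16-IFNA4 tumors, 1 of 15921 genes had a higher (more positive) slope in B16-IFNA9 tumors (0.00628%) and none a lower one (175 and 393 at an unadjusted p under 0.05). That gene was Gm8991, with a difference of 8.51 in this fit. In separate fits of each type its slope was 0.47 in B16-IFNA9 and -8.48 in B16-IFNA4 tumors. None of the 61 genes higher with the score that could be tested differed, and neither did Ms4a7 (adjusted p = 0.765). The median difference of the 61 slopes was -0.04 with a median SE of 0.31, so that differences of a size like the slopes themselves could go unseen. Against B16-GFP tumors 360 genes (2.26%) had a higher slope in B16-IFNA9 tumors and 390 (2.45%) a lower one. These are signs of the difference, which do not say in which type a slope was steeper, and without B16-GFP replicate 7, the tumor with the lowest score, these were 18 and 95. With library totals in place of TMM they were 32 and 912, and with a stricter filter, a mean count of 100 or more, 423 and 258, so that the balance of signs depended on the scaling and the filter. Of the 61, Arel1 and Serpinb9 had a higher slope and Igtp a lower one in B16-IFNA9 tumors, with differences of 0.26 ± 0.06, 0.39 ± 0.11 and -0.38 ± 0.10 (edgeR adjusted p = 0.00984, 0.0431 and 0.0287).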

How the data were processed

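Stranded mRNA libraries of whole tumors gave 50-base single-end reads. The authors checked them with FastQC 0.11.3, aligned them with HISAT2 2.0.4 to a mouse genome (mm10 in the submitters' processing notes, mm11 in the methods) and deposited counts per gene, without normalization. The strand setting and the handling of reads with several alignments are not given in the sources used here. Of 39676 gene identifiers, 39495 matched GENCODE M21. No 2 tumors of a type were alike within sampling noise (chi-square per gene of at least 14.1 in B16-IFNA9 pairs). Errors of slopes are SEs over tumors.

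Counts were scaled by TMM over 30 tumors in edgeR 4.0.16 (R 4.3.3), and log2 CPM took a prior count of 2. Spearman's rho was tested two-sided against all 3628800 orders of 10 tumors, Pearson's r with 100000 resamples, and p-values were adjusted by Benjamini-Hochberg. For relations to the score the adjustment ran over 15889 genes, the 5 ranking genes among them, although no call is counted for these 5. Slopes came from edgeR's quasi-likelihood test (glmQLFit, glmQLFTest) and, as an alternative, DESeq2 1.42.0. Coordinates are GENCODE M21's, and promoters RefSeq's. Scripts were tested on simulated counts with a dispersion of 0.05, in which 200 genes had a slope of 1 in either direction in B16-IFNA9 tumors. The edgeR slope recovered 200 of these, Spearman's test 94, and the difference in slope from B16-IFNA4 tumors only 7. The ranking genes, lists and members were chosen with earlier results of these data known. The genes named are the ranking genes, genes of IFN-γ production and signaling (1 of the list is not reported here), from each other list the highest and lowest rho and, outside the lists of surrounding tissue, B cells and neutrophils, abundant genes, the 10 highest and lowest rho among called protein-coding genes, and the 5 lowest p of each slope difference. Others were named after their values were seen, among them Gbp2b, Gbp10, Gbp6, Acod1, Batf2, Cd274, Mx1, Irf7, Usp18, Klra8, Klre1 and Klrc1. Mitochondrial genes were not analysed here. Alternatives were library totals, DESeq2's size factors, another prior count, other filters, other scores, Pearson's r, DESeq2, Ptprc or the rank as covariate, a replicate block and leaving out tumors.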

Additional observations from a re-analysis of the deposited data

Results flagged for a closer look

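Some values stood apart from the other 9 B16-IFNA9 tumors by Dixon's criterion, in 5 of 109 sets of values searched, where chance gives about 5.45. H2-Aa was 8.29 log2 CPM in replicate 10, against 9.14 to 9.75 in the others, and Ifngr1 was 6.34 in the same tumor, against 6.90 to 7.36. Tyrp1 was 12.91 log2 CPM in replicate 10, against 11.46 to 12.18. Ptgs2 was 3.50 log2 CPM in replicate 5, against 4.31 to 5.21, and Socs3 was 5.95 in replicate 8, against 4.74 to 5.33.

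Slopes on the score differed between tumor types in edgeR for some of the genes named in the text. In B16-IFNA9 minus B16-IFNA4 tumors, the pseudogene Gm8991 differed by 8.51 ± 1.09 in the fit of all tumors (SE, edgeR adjusted p = 0.000234). Separate fits of each type gave it slopes of 0.47 and -8.48. It had 3 to 56 counts per B16-IFNA9 tumor and a median of 7.5 but up to 861 counts per B16-IFNA4 tumor. The next 4 genes by p, the pseudogenes Rpl31-ps9 and Rpl31-ps20, Rpl27-ps1 and Gm5616, had adjusted p of 0.585 to 0.661. In B16-IFNA9 minus B16-GFP tumors, the 5 genes with the lowest p all had an adjusted p of 0.00420. They were Pinlyp (-6.18 ± 1.01), Kcnh1 (-3.62 ± 0.58), Atp13a4 (-3.08 ± 0.51), 2310007B03Rik (-2.22 ± 0.37) and Rab32 (0.51 ± 0.08). Pinlyp reached 1727 counts in a B16-GFP tumor around a median of 8. Igtp and Usp18 were named after their values were seen. Igtp differed by -0.38 ± 0.10 (edgeR adjusted p = 0.0287), Mx2 by -0.82 ± 0.19 (0.0119) and Usp18 by -0.68 ± 0.17 (0.0257), with a lower slope in B16-IFNA9 tumors. Separate fits of each type, which need not give the same differences, had slopes of 0.76, -0.07 and -0.02, against 1.14, 0.78 and 0.67 in B16-GFP tumors.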

How the results depend on the processing

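Of the 62 genes higher by rank, 52 remained with library totals, 57 with DESeq2's size factors and 45 to 62 with a score that left out 1 ranking gene, and the count stayed within 1.5 times in each of these. Pearson's r called 118 genes higher. Leaving out 1 B16-IFNA9 tumor gave 0 to 56 higher and 0 to 6 lower genes by rank, and 48 to 173 rising and 1 to 11 falling genes in edgeR. DESeq2 called 337 rising and 68 falling genes, and edgeR 24 and 0 with Ptprc and 4 falling with the rank as covariate. Of the slope differences between B16-IFNA9 and B16-IFNA4 tumors, none remained with a mean of at least 100 counts (0 genes with a higher slope in edgeR, 114 at an unadjusted p under 0.05). Against B16-GFP tumors, library totals gave 32 genes with a higher and 912 with a lower slope in B16-IFNA9 tumors, omission of B16-GFP replicate 7 gave 18 and 95, and a mean of at least 100 counts 423 and 258. With the replicate block, 0 genes differed against either type in edgeR (747 higher and 818 lower against B16-GFP at an unadjusted p under 0.05). Same-numbered tumors did not deviate together (4 of 30 pairs with a correlation over 0.1, medians of -0.10 to -0.01), so that the numbers do not pair tumors. Without replicates 5 and 8, r turned to -0.27 for genes with a count and to -0.083 for component 1. Over 22 settings, the 38 called genes among those named gave 835 values, of which 534 kept the call, 301 lost it and 0 reversed. Uncalled genes near 0 reversed. Thy1 gave -0.018 and Mc1r -0.091 with library totals, Ifngr2 0.042 and Mc1r -0.067 with a score without Irf1, and Mrc1 0.088 and Mc1r -0.12 by Pearson's r. Without 1 tumor each, rho spanned -0.20 to 0.38 for Thy1, -0.17 to 0.33 for Mc1r, -0.23 to 0.33 for Ifngr2, -0.48 to 0.12 for Mrc1, -0.20 to 0.32 for H2-Ob, -0.017 to 0.42 for Ptgs2, -0.33 to 0.13 for Usp18, -0.38 to 0.22 for Gzmk, -0.47 to 0.033 for Pdcd1, -0.05 to 0.40 for Cd163, -0.40 to 0.05 for Gpnmb, -0.05 to 0.48 for Socs3 and -0.45 to 0.15 for Mki67. With 10 tumors, only an absolute rho of 0.94 or more passed the rank test, a limit that does not hold for edgeR.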

Other observations

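Several genes outside the lists were also higher in B16-IFNA9 tumors with a higher score, and they were chosen after their values were seen. Il18bp, the soluble inhibitor of IL-18, ran from 58.1 through 105 to 199 CPM (slope 0.74 ± 0.07, rho = 0.99). Serpinb9, an inhibitor of granzyme B, ran from 39.4 through 67.0 to 93.9 CPM (slope 0.50 ± 0.05), and Samhd1, a dNTPase that restricts retroviruses, from 314 through 597 to 839.8 CPM (slope 0.52 ± 0.07). Il2rg, the common γ chain of cytokine receptors, ran from 39.4 through 68.8 to 99.0 CPM (slope 0.42 ± 0.07, 27.5% of its stretches shared). Gm12185, in the cluster of immunity-related GTPases on chromosome 11, had a slope of 1.18 ± 0.09, and Majin, with a median of only 0.973 CPM, a slope of 1.08 ± 0.20. Il18bp and Serpinb9 were called in all 10 edgeR fits without 1 tumor, and Il2rg in 8 and Majin in 4 of them.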
